A study of Mus musculus with 30 samples.

Results

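Nr5a2 encodes an orphan nuclear receptor also called liver receptor homologue 1 (LRH-1), and its level was followed here over 15 adult mouse organs and tissues on 30 arrays. The gene was read through 1 probe, Z00009889-1, out of 25030 probes in the authors' value table. Nuclear receptors are transcription factors of which many are switched by small lipophilic ligands. NR5A2 binds DNA as a monomer and is known for its part in bile acid and cholesterol metabolism in the liver, in the renewal of the intestinal epithelium, in the exocrine pancreas, in ovarian steroid synthesis and in the early embryo, where it also takes part in the expression of Pou5f1 in embryonic stem (ES) cells.

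All tissues came from male C57BL/6 mice, 28 weeks old per the labels (the methods of the study give another age), with 2 arrays per tissue and no treatment. The tissues were liver, stomach, small intestine, large intestine, kidney, bladder, heart, muscle, lung, skin, fat, bone, eyes, brain cortex and cerebellum, and pancreas, gonads and adrenal gland, where the gene or its closest relative is known to act, were not among them. Tissue RNA was labelled with Cy3 and hybridised against a Cy5-labelled common reference, a pool of RNA from mouse cell lines, 1 of them of liver origin, that was mixed with ES cell RNA. The dyes were not exchanged on any array. The study describes the 2 arrays of a tissue as separate animals, though no array is tied to a named animal. The submitters' design text counts bone and fat as not replicated even though each has 2 labelled arrays, so the spread of those 2 tissues may be technical. In whole tissue, fewer expressing cells and less RNA per cell cannot be told apart.

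In RefSeq (build GRCm38.p6) Nr5a2 lies on the minus strand of chromosome 1, at chr1:136842562-136960448. The probe has 60 bases, and its first 30 are shown because every Nr5a2 value below rests on this 1 probe.

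Probe Z00009889-1, first 30 bases: aatgatatatcagggtatttgtactgcaaa

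All 6 reading frames of the whole probe hold a stop codon, and 35.0% of its bases are G or C. Its position in the transcript was not analysed here, and transcripts that lack this sequence would not be seen. RefSeq gives the gene 2 start sites, 6818 bases apart, and the window of 250 bases before to 50 bases after each is shown because the array does not tell which of them was used in which organ. Both windows are on the minus strand, written 5′ to 3′, and capitals mark matches to the motifs named next.

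Upstream start site, chr1:136960399-136960698: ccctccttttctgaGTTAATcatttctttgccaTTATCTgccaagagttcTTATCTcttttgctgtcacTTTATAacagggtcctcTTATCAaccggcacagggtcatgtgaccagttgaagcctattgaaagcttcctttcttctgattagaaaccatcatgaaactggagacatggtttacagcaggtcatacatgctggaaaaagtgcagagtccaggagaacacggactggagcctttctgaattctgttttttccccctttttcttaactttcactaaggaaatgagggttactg

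Downstream start site, chr1:136953581-136953880: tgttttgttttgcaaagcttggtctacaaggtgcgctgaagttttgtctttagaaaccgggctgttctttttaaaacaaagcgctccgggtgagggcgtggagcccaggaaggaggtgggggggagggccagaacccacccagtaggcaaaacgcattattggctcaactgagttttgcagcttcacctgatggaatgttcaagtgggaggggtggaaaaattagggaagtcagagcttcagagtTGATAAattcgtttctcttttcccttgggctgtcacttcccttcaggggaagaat

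Both strands were searched for 7 motifs, namely the TATA box and motifs of factors known from liver and gut. The GATA core AGATAA occurred 2 times in the upstream window and in 11.2% of 32851 RefSeq windows of the same length, and the GATA core TGATAA occurred once in each window and in 9.05% of all. GTTAAT, a half-site of the HNF1 family, occurred once in the upstream window and in 7.1% of all windows, and the TATA box letters TATAAA occurred once there, on the opposite strand to the gene, and in 13.6% of all. The forkhead motif TGTTTAC, the NR5A half-site CAAGGTCA and the HNF4 motif CAAAGTCCA were in neither window, and they occurred in 3.65%, 1.56% and 0.475% of all windows. These are matches of letters only.

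In the raw images, liver stood apart from every other tissue. The spot's mean Cy3 signal was 191 and 205 scanner units on the 2 liver arrays, against local backgrounds of 47.5 and 46.0. Small intestine gave 88.9 and 72.1, and large intestine gave 84.0 and 67.4. On the 24 arrays of the other 12 tissues the signal lay between 51.0 and 67.9, with a median of 57.8, over backgrounds of 42 to 52. The weaker liver array was thus 2.15 times as bright as the brightest array of any other tissue.

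The scanner software called the Cy3 signal well above background on 5 of 30 arrays, namely both of liver, both of small intestine and replicate 1 of large intestine. The remaining 25 arrays were not well above background, stomach, kidney and brain cortex among them, so the ratios of 12 tissues describe a spot that was 1.07 to 1.47 times as bright as its surroundings. Among the 21019 probes tested, 6.46% were well above background on at most 5 arrays, and 9 probes (0.0428%) were so on all arrays of liver and small intestine and on none outside the 4 digestive organs. In the reference channel the same spot was well above background on 30 of 30 arrays, at 175 to 271 units (median 229).

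**Figure D1:**
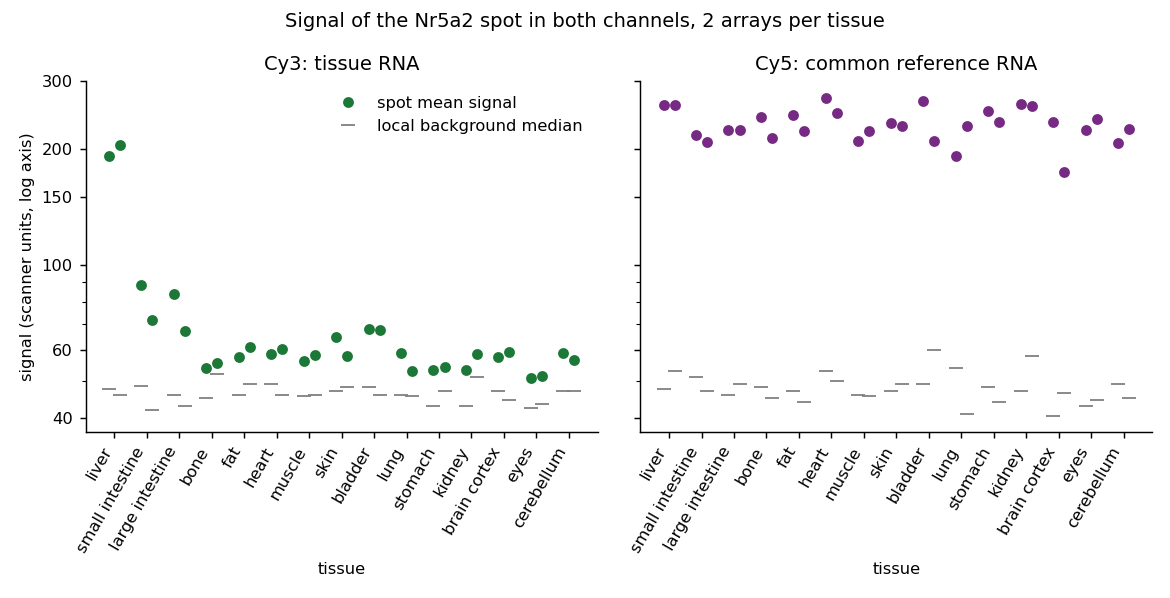
Mean signal of the Nr5a2 spot (scanner units, log axis) in Cy3, left, and in the Cy5 reference, right, with 2 points per tissue and grey dashes for the local background. Cy3 reached 191 and 205 in liver and at most 88.9 elsewhere, while Cy5 stayed between 175 and 271 on all 30 arrays.

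Expressed as normalised log2(Cy3/Cy5), where 0 is the dye trend of an array and not equal amounts, Nr5a2 was above 0 in liver alone. Liver replicates gave 1.1 and 1.24, a mean of 1.17 ± 0.10 (SD, n = 2, as for all means that follow). Their raw Cy3 signal, 191 and 205, was below the raw Cy5 signal of 260 on both arrays. With each array centred on its median in place of the trend, they gave 0.38 and 0.41. Small intestine gave -0.48 and -0.27, a mean of -0.38 ± 0.14. Large intestine gave -0.25 and -0.69, a mean of -0.47 ± 0.32. The lower liver array exceeded the highest array of any other tissue by 1.31 on the log2 scale, so liver did not overlap with any of them.

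Below the intestine the replicates of bone and fat were far apart. Bone gave -1.18 and -0.22 (mean -0.70 ± 0.68), and fat gave -1.51 and -0.27 (mean -0.89 ± 0.88). Replicate 2 of each thus carried a ratio at the level of intestine, although its Cy3 signal, 55.6 for bone and 61.1 for fat, was not well above a background of 52 and 49. Those were the only arrays of the last scan day. With Cy3 taken alone and quantile normalised, fat replicate 2 lay at 6.18 (log2), within the range of 6.03 to 6.20 of the other 22 dim arrays, and bone replicate 2 lay at 5.98, below that range. Both were below the 6.52 to 6.84 of the 4 intestine arrays. The part of the scan day in these ratios was not tested.

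The other 10 tissues lay close together. Heart gave -1.19 and -0.95, muscle gave -1.12 and -1.22, and skin gave -1.19 and -1.18. Bladder gave -1.45 and -1.13, and lung gave -1.34 and -1.25. Stomach gave -1.32 and -1.41, so it lay with the dim tissues and not with the intestine. Kidney gave -1.31 and -1.44, and brain cortex gave -1.80 and -1.17. Eyes gave -1.43 and -1.57, and cerebellum gave -1.51 and -1.60, the lowest mean at -1.56 ± 0.07. Apart from replicate 2 of bone and of fat, the 22 arrays of the 12 dim tissues lay between -1.80 and -0.95, below all 4 intestine arrays (-0.69 to -0.25).

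**Figure D2:**
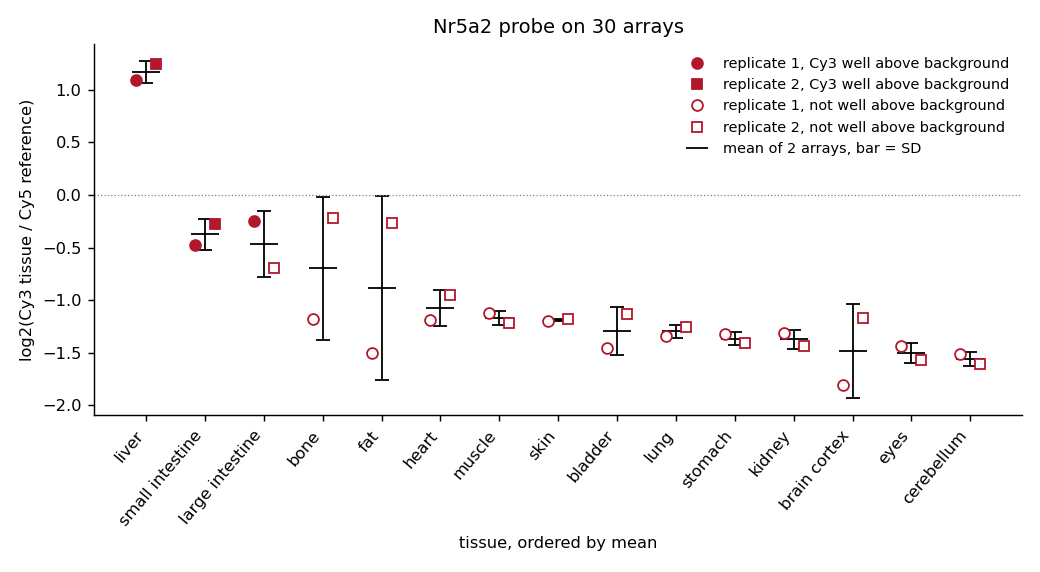
Nr5a2 as log2(Cy3 tissue/Cy5 reference) on each of 30 arrays, tissues ordered by their mean, with the mean and SD of 2 arrays in black and filled symbols where Cy3 was well above background. Liver is the sole tissue above 0, the intestines come next, and replicate 2 of bone and of fat lies at the intestinal level with an open symbol.

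The level differed among the 15 tissues (limma moderated F-test, adjusted p = 2.06e-05), as it did for 90.8% of all probes tested. A call between tissues required an adjusted p under 0.05 and a log2 difference of at least 1. Liver was 2.29 ± 0.23 (SE) above the mean of the other 14 tissues on the log2 scale (limma, adjusted p = 1.44e-07), and both its arrays exceeded all 28 others. No fold is given, since 12 of those 14 tissues were not well above background and the size moved with the offset, to 3.13 with an offset of 16. In that comparison 11.3% of all probes were called higher in liver. Small intestine was 0.64 above the mean of the other 14 (adjusted p = 0.032), where 11.2% of probes were called higher. Cerebellum stood at -0.63 from that mean (adjusted p = 0.029), where 14.9% were called lower, and neither tissue reached the fold needed for a call. Large intestine was 0.54 above it (adjusted p = 0.064), where 10.7% were called higher. Liver was therefore the 1 tissue called higher, and 0 tissues were called lower by limma, with 3 below the mean of the others at an unadjusted p under 0.05 (cerebellum, eyes and brain cortex). These 3 were called lower on the processed signals of the scanner software, at -2.04 for cerebellum, -2.36 for eyes and -1.29 for brain cortex, and on the authors' value table, at -1.38, -1.71 and -1.08. On both of these sources small and large intestine were called higher too. With an offset of 16 small intestine was called higher, at 1.04 (limma, adjusted p = 0.029).

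Every pair of the 15 tissues was compared. An adjusted p under 0.05 was reached by 32 pairs, and 20 pairs also had the size needed and were called. Liver was called above each of the 14 other tissues, with log2 differences of 1.55 to 2.73 and adjusted p-values of at most 0.000698. The share of all probes called higher in liver was 8.39% against kidney, 11.1% against small intestine, 11.2% against stomach, 11.8% against fat, 12.5% against heart, 12.8% against skin and 12.9% against bladder. It was 13.2% against bone, 13.9% against lung, 14.3% against large intestine, 15.1% against muscle, 15.2% against eyes, 17.7% against brain cortex and 18.4% against cerebellum. All 14 were also called in each of 43 other fits that gave all pairs, whether 1 array was left out or the processing was changed. As 12 of these tissues were not well above background on any array, their fitted differences rest on dim spots. Set against the higher of the dim spot and the faintest signal well above background on those arrays, liver was at least 3.1-fold higher than fat and at least 5.39-fold higher than brain cortex, with the other 10 dim tissues between these bounds. Such bounds hold for this processing alone, with an offset of 50 and both channels scaled between arrays, and are open to dye bias because dyes were not exchanged. The fitted value of liver over brain cortex was 4.36-fold from Cy3 alone and 3.73-fold with median centring, both under the bound, and that of liver over fat was 2.89-fold with median centring, also under its bound. Against small intestine, measured on both arrays, liver was 2.92-fold higher (log2 difference 1.55, 95% interval 0.88 to 2.21, adjusted p = 0.000698). That size also moved with the processing, from 1.11 to 2.79 (log2) over 14 other settings, and was 6.91-fold on the value table. Against large intestine, where 1 of 2 arrays was well above background, the log2 difference was 1.64 (adjusted p = 0.000343), and no fold is given.

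The remaining 6 calls were those of small and large intestine, each above brain cortex, cerebellum and eyes. All 6 were lost with median centring and with Cy3 alone, and the 3 of large intestine were lost with arrays weighted by tissue. More were called elsewhere, 12 pairs for each intestine on the value table and on the processed signals, and 9 for small and 6 for large intestine with an offset of 16. Without replicate 1 of brain cortex 1 call of each intestine was lost, and without replicate 2 of eyes 1 call of large intestine. Small intestine exceeded cerebellum by 1.18 (log2, adjusted p = 0.0041), and large intestine exceeded it by 1.09 (adjusted p = 0.007). Higher in small intestine were 18.2% of probes against brain cortex, 18.7% against cerebellum and 14.8% against eyes, and higher in large intestine were 18.6%, 19.1% and 15.5%. Small and large intestine were not called apart, with a log2 difference of 0.09 and an interval of -0.58 to 0.76 (adjusted p = 0.917). Small intestine missed the call by size alone against kidney (0.999, adjusted p = 0.019), stomach (0.99, adjusted p = 0.029), bladder, lung and muscle. Large intestine did so against kidney, stomach, lung and bladder, at 0.83 to 0.91.

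**Figure D3:**
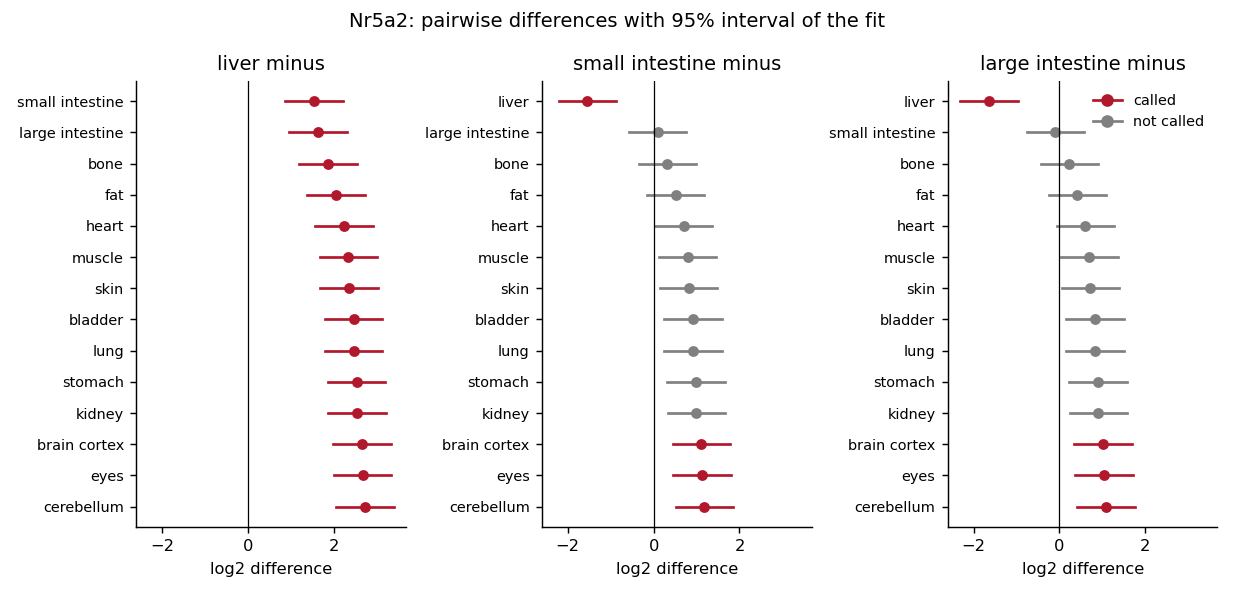
Log2 differences of Nr5a2 between liver, small intestine or large intestine and each of the 14 other tissues, with the 95% interval of the fit and called pairs in red. All 14 intervals of liver lie above 0, and for both intestines the called tissues beside liver are brain cortex, eyes and cerebellum. Other tissues, kidney and stomach among them, missed the call for both intestines by size alone.

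Among the 12 dim tissues 0 of 66 pairs were called by limma, and 5 had an unadjusted p under 0.05. The 3 with an adjusted p under 0.05 were bone against brain cortex, cerebellum and eyes, and bone had only its replicate 2 at an intestinal ratio. Other processing called a few pairs, namely 9 on the processed signals of the scanner software and 2 with an offset of 16. Leaving out 1 array called 7 pairs without replicate 1 of bone or of fat, and 1 pair without replicate 2 of brain cortex. The order of these means was therefore not resolved by the fit used here. Of the 14 pairs of neighbours in that order, 1 was called, liver against small intestine. Brain cortex and cerebellum differed by 0.07 (interval -0.60 to 0.74, adjusted p = 1.00) and heart and muscle by 0.10 (interval -0.57 to 0.77, adjusted p = 0.923). A typical probe was called in more pairs, with a median of 26, and 58.3% of probes had at least the 20 pairs of Nr5a2.

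The 4 digestive organs (liver, stomach, small and large intestine) averaged 0.97 ± 0.13 (SE) above the other 11 (adjusted p = 3.43e-06), just short of a log2 difference of 1, and 9.3% of probes were called higher in that comparison. It was a call at 1.37 with an offset of 16, 2.71 on the value table, 3.13 on the processed signals and 1.09 with scan day as a random block. Over 13 other settings it ran from 0.69 to 3.13. Leaving out replicate 2 of bone and of fat together, chosen after seeing the data, gave 1.07, also a call. Leaving out any 1 array gave 0.91 to 1.03, on both sides of the size needed. The mean covers unlike members, since stomach at -1.37 ± 0.06 was 0.42 below the mean of the other 14 tissues (adjusted p = 0.174) while liver was the highest of all.

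Slides and scan days were unevenly spread over tissues. Both liver arrays shared a slide with both heart arrays and no other tissue, and on that slide liver exceeded heart by 2.24. On the scan day of liver, it exceeded the mean of 7 dim tissues by 2.58, and their arrays lay between -1.80 and -0.95. Small intestine exceeded the 4 dim tissues of its own scan day by 0.93, and large intestine exceeded them by 1.06 on replicate 1. Replicate 2 of large intestine, scanned on another day together with bone, exceeded that 1 bone array by 0.49. With scan day as a random block liver against the other 14 was 2.31 (adjusted p = 3.59e-08).

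The labels of liver were checked with 10 genes known from hepatocytes that had a named probe, such as Cps1 of the urea cycle and Serpinc1, the antithrombin gene. All 10 were well above background on both liver arrays and 10 of 10 were called higher in liver, against 11.3% of all probes. The highest mean was in liver for 9 of them, while Apoa2 was higher in cerebellum (4.28) and brain cortex (3.83) than in liver (3.78). F13b and Spp2 were also high in kidney, at 6.98 and 7.44 against 7.79 and 8.07 in liver. Their summed linear ratio was 1996 and 1871 on the liver arrays and 15.5 to 345 elsewhere. Serpinc1 was 5.20 ± 0.11 (SE) above the mean of the other tissues on the log2 scale (adjusted p = 6.56e-18).

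The 2 arrays of large intestine differed in some markers of small intestine and not in others. Sis, sucrase-isomaltase of the small intestinal brush border, had log2 ratios of 9.02 and 9.51 in small intestine, but 7.91 on replicate 1 and -0.46 on replicate 2 of large intestine. Cps1, which is also made by small intestinal epithelium, followed with 7.0 and 6.66 in small intestine and 4.34 and -0.14 in large intestine. The gap was smaller for the other 5 enterocyte genes. Ada, adenosine deaminase, was 2.08 and 1.36 in large intestine, Vil1, villin of the microvilli, was 5.61 and 5.12, and Alpi, intestinal alkaline phosphatase, was 3.47 and 3.03, all 3 higher on replicate 1. Lct, the lactase gene, was 0.64 and 0.83, and Pigr, the receptor that carries IgA across epithelium, was 3.83 and 5.06, both higher on replicate 2. The 6 enterocyte genes had a summed linear ratio of 320 and 81.5 in large intestine, 653 and 924 in small intestine and 4.18 to 45.9 elsewhere, and without Sis the other 5 summed to 79.8 and 80.8 in large intestine. Nr5a2 was the higher on the same replicate 1, at -0.25 against -0.69, and well above background on that array only. Without replicate 1, large intestine was 0.32 above the other 14 tissues (adjusted p = 0.435) and its 3 called pairs were lost. The part of these markers in the Nr5a2 value was not tested. None of 22 pancreatic acinar genes had a named probe, so pancreas tissue carried along with the gut was not looked for.

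In a comparison of profiles, the genes with a symbol whose 15 tissue means were most like those of Nr5a2 were Septin14, Agxt, Hhipl2, Rfxank and 1700001C19Rik. Pearson's r over the 15 means was 0.96 for Septin14, a filament protein, and 0.95 for Agxt, the peroxisomal enzyme that detoxifies glyoxylate in liver. It was 0.91 for Hhipl2, for Rfxank, a subunit of the factor that drives MHC class II genes, and for 1700001C19Rik. These values describe the likeness of means that share their arrays and their reference. Over the 14 tissues without liver, r was 0.84 for Septin14, 0.827 for Agxt, 0.718 for Hhipl2, 0.813 for Rfxank and 0.604 for 1700001C19Rik. Of all tested probes, 25 reached an r of 0.9, and all 25 had their highest mean in liver, as did 2224 probes in all.

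The steps differed in size behind a similar shape. Agxt had log2 ratios of 6.39 ± 0.07 in liver, 2.44 ± 0.19 in small intestine and 1.47 ± 0.37 in large intestine, and 0.16 ± 0.10 in stomach. Its liver level was 6.21 ± 0.15 (SE) above the other tissues on the log2 scale, against 2.29 for Nr5a2. Agxt was well above background on 9 of 30 arrays and Nr5a2 on 5 of 30. Both sizes are thus taken against mostly dim spots and hold for this processing alone. Septin14 lay in the range of Nr5a2, at 1.68 ± 0.09 in liver and -0.89 ± 0.04 in small intestine, but was well above background on 30 of 30 arrays. The genes least alike were Nbdy (r = -0.88), Aktip (r = -0.86) and Mvb12b (r = -0.85), each with its lowest mean in liver.

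**Figure D4:**
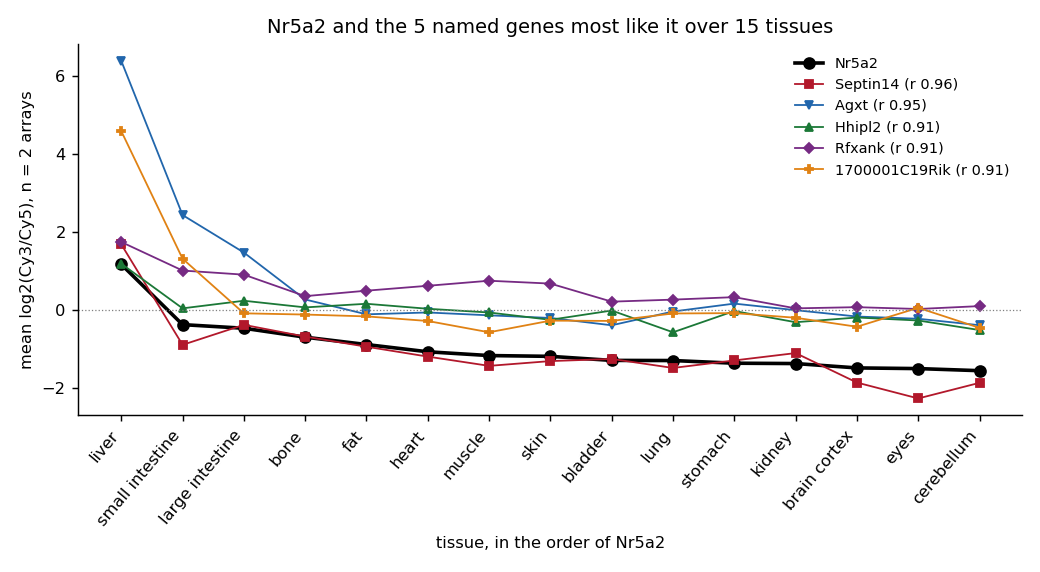
Mean log2(Cy3/Cy5) of 2 arrays for Nr5a2 (black) and the 5 named genes most like it, over 15 tissues in the order of Nr5a2. Each is highest in liver, and the step from liver to the next tissue is widest for Agxt, which stood at 6.39 in liver and 2.44 in small intestine.

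Of 48 other nuclear receptor genes listed, 2 had a named probe. Nr1i3, the constitutive androstane receptor that switches on drug metabolism in liver, was 4.62 ± 0.11 in liver and 3.87 ± 0.15 in small intestine, but 0.65 ± 0.28 in large intestine. It was called higher in liver than in the other tissues (4.13, adjusted p = 2.98e-16). Rxrg, a retinoid X receptor, was 2.97 in liver against 6.71 in muscle and was not called (0.24 above the other tissues, adjusted p = 0.524). Of 25 co-regulator genes, 8 had a named probe and 0 were called either way by limma, where 11.3% of all probes were called higher and 14.9% lower. An adjusted p under 0.05 without the size for a call was reached by 3. They were Edf1 (0.73 in liver against the other tissues, adjusted p = 1.2e-05), Ncoa5 (-0.70, adjusted p = 0.0049) and Ncoa2 (0.40, adjusted p = 0.011). The co-regulators are proteins such as Ncoa2, a coactivator that docks on ligand-bound receptors, and Med1 of the Mediator complex, at -0.11 (adjusted p = 0.686). Their median difference was 0.08 against -0.10 over all probes.

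Of 56 genes of bile acid and sterol metabolism, 11 had a named probe. In liver 7 were called higher and 2 lower than in the other tissues, where 11.3% and 14.9% of all probes were, with a median difference of 1.59. The highest mean was in liver for 3 of the 11. Cyp27a1, the mitochondrial sterol hydroxylase that opens the acidic route to bile acids, was 4.94 ± 0.09 in liver (1.59 above the other tissues, adjusted p = 1.09e-09). It was 4.26 in muscle, the next tissue, and 4.17 ± 0.25 in small intestine. Abcb4, which exports phospholipid into bile, was 3.09 higher in liver (adjusted p = 9.32e-08), and Acat2, an acetoacetyl-CoA thiolase, was 1.80 higher (adjusted p = 1.08e-09). Abcb4 was nearly as high in muscle (3.24) and bone (3.20) as in liver (3.53), and Acat2 was higher in fat (0.85) than in liver (0.69). Abcc4, a basolateral bile acid exporter, was lower (difference -2.22, adjusted p = 1.08e-05), as was Abcb1a, a multidrug exporter that was highest in small intestine (difference -1.52, adjusted p = 0.0001).

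Steroid synthesis was represented by 2 of 24 genes. Hsd17b7, which serves cholesterol and oestradiol synthesis, was 2.36 higher in liver (adjusted p = 2.91e-05), and Stard3, a cholesterol carrier of late endosomes, was not called (-0.12, adjusted p = 0.687). Among 24 regulators of liver and gut 1 had a named probe, Ihh, a hedgehog ligand of the gut epithelium. It was 3.77 in large intestine, 3.53 in small intestine, 2.81 in stomach and 1.62 in liver, and was called higher in the 4 digestive organs (2.56, adjusted p = 7.33e-12). Of 26 pluripotency genes Tfcp2l1 had a named probe, and it was highest in kidney. Of 9 marker genes of muscle, heart, skin, eye and brain with a named probe, 6 were called lower in liver, as were 14.9% of all probes, and 3 were not called.

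Along chromosome 1, the 5 nearest genes with a named probe on each side of Nr5a2 were examined, of which 8 passed the filter on dim probes. They were Zfp281, Kif14, Ddx59 and Camsap2 on the lower side and Ptprc, Nek7, Lhx9 and 2310009B15Rik on the higher side. Zfp281, a zinc finger factor of pluripotent cells, was called higher in liver (1.15, adjusted p = 0.000173), as were 11.3% of all probes, but had its highest mean in eyes. The other 7 were not called. None of the 8 had its highest mean in liver, against 2224 of the 21019 probes tested. Their r with Nr5a2 ran from -0.61 for Camsap2 to 0.32 for Ptprc, the CD45 gene of blood cells.

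Tissue specificity was expressed as information, the largest entropy that 15 tissues allow minus the entropy of the tissue shares of the linear ratio. Nr5a2 had 0.286 bits of a possible 3.91, at the 64.3 percentile of probes tested (median 0.159). Liver held 25.3% of its summed ratio, small intestine 8.66% and large intestine 8.12%, and each dim tissue 3.82% to 6.93%, where an even spread gives 6.67%. An offset of 50 had been added to every corrected signal. With an offset of 16 it was 0.626 bits, and on the authors' value table it was 1.95 bits.

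The size of the liver step changed with the processing too, while its direction and call stayed. Liver minus the other 14 tissues was 2.29 with the offset of 50, 3.13 with an offset of 16, 5.34 on the authors' value table and 5.84 on the processed signals of the scanner software, all in log2. On these last 2 sources small intestine and large intestine were called above the other tissues too, at 2.35 and 1.67 on the value table. From Cy3 alone, without the reference channel, the liver step was 2.03. With each array merely centred on its median it was 1.69, the smallest of all.

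**Figure D5:**
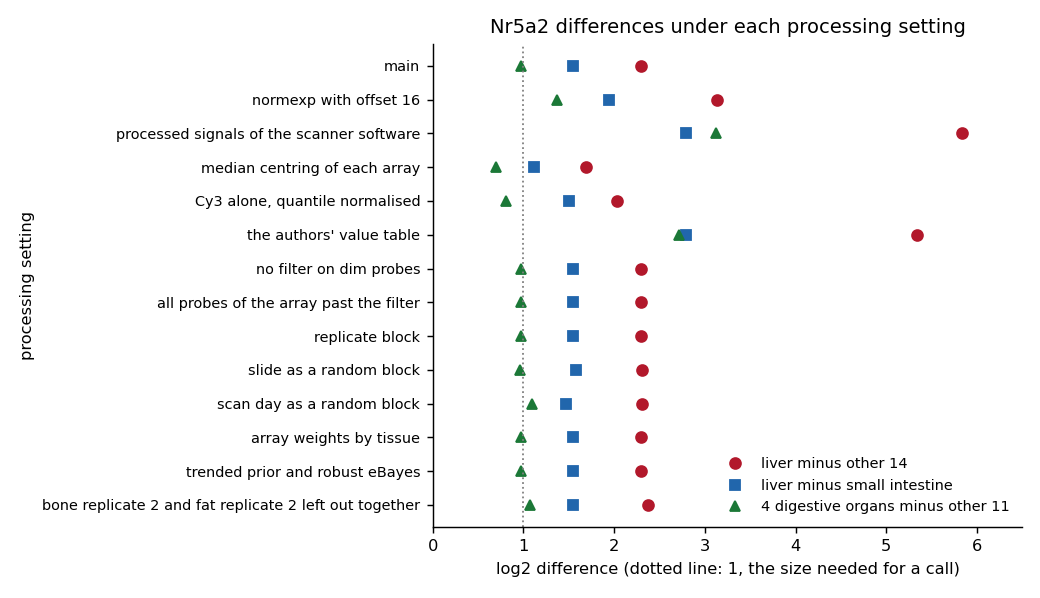
Log2 difference of Nr5a2 for 3 comparisons under each processing setting, with a dotted line at 1, the size needed for a call. Liver minus the other 14 tissues (circles) and liver minus small intestine (squares) stay above 1 throughout, from 1.69 to 5.84 and from 1.11 to 2.79, and the 4 digestive organs minus the other 11 (triangles) lie on both sides of it.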

How the data were processed

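Spot files of 30 two-colour Agilent arrays were deposited, made by the authors with Feature Extraction 9.5.1.1. They hold intensity in scanner units and flags, an other kind of value. The authors' value table is on a log10 scale. On 11751 bright probes it followed the log10 processed Cy3 signal (slope 0.998), corrected for the reference (slope -0.996). Mean signals were corrected by normexp (offset 50), control and outlier spots were dropped, arrays were normalised by loess, and log2(Cy3/Cy5) was modelled per tissue over 30 arrays (R 4.3.3, limma 3.58.1). Tested were 21019 of 25030 table probes, requiring 1 tissue or more in which both arrays had Cy3 well above background. P-values are two-sided and adjusted by Benjamini and Hochberg over all probes within a comparison. The fit was tested on simulated data. The number of arrays limits the precision. Symbols of 5047 tested probes came from the study's probe lists and are named by current RefSeq symbols. Nr5a2, the gene lists and the rule for named genes (list members, the 5 most and 3 least alike, the 5 neighbours on each side) were chosen with earlier results of these data known. Genome positions of probes were not used here.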

Additional observations from a re-analysis of the deposited data

How the results depend on the processing

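Liver against the other 14 tissues, liver against small intestine and the F-test kept their direction and call under 13 or 14 other settings each and without any 1 of 30 arrays, with 2.22 to 2.37, 1.44 to 1.65 and adjusted p-values of 5.51e-07 to 0.000805 when 1 array was left out. The digestive contrast, 0.97, was called at 1.37 with an offset of 16, 3.13 on the processed signals and 2.71 on the value table. It was also called at 1.09 with scan day as a random block and at 1.07 without replicate 2 of bone and of fat. Its lowest value over 13 other settings was 0.69, and it ran from 0.91 to 1.03 without 1 array. The count of tissues called higher, 1, was 2 with an offset of 16 and 3 on the processed signals and on the value table, where 3 were called lower in place of 0, and the 2 counts stayed at 1 and 0 without any 1 array. The count of pairs, 20, was 31 with an offset of 16, 47 on the processed signals, 38 on the value table, 14 with median centring and from Cy3 alone (those of liver) and 17 with arrays weighted by tissue, and 17 to 27 without 1 array, with 7 pairs among the dim tissues in place of 0 when replicate 1 of bone or of fat was left out. Information was 0.626 bits with an offset of 16, 2.18 on the processed signals, 1.95 on the value table, 0.137 with median centring, 0.200 from Cy3 alone and 0.309 without replicate 2 of bone and of fat, and 0.265 to 0.308 without 1 array.

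Differences that were not called changed sign. Small against large intestine was -0.00782 with the slide and -0.0279 and -0.00955 with the slide and the scan day, the first as a random and the others as fixed blocks, and -0.13 to 0.32 without 1 array. Brain cortex against cerebellum was -0.0518 from Cy3 alone, -0.13 and -0.0306 when slide or scan day was a random block, -0.25 and -0.0664 when either was a fixed one, and -0.25 to 0.39 without 1 array. Heart against muscle was -0.024 to 0.22 without 1 array. Bone against the other 14 tissues, 0.29, was -0.75 on the processed signals, -0.32 from Cy3 alone, -0.43 on the value table, -0.14 without replicate 2 of bone and of fat, and -0.19 to 0.77 without 1 array. Fat, 0.09, was -0.99, -0.60 and -0.19 on the processed signals, the value table and Cy3 alone, -0.18 with scan day as a random block, -0.49 without both replicates 2, and -0.53 to 0.71 without 1 array. Heart against the other 14 was -0.23 to 0.0125 without 1 array. The cause of these changes was not tested.

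Replicate numbers did not pair the arrays, since the correlation of deviations between tissues with the same number ran from -0.25 to 0.34 over all pairs of tissues, with 32 over 0.1. With the replicate block 20 pairs were called, as without it, and liver against the other 14 tissues was 2.29 (adjusted p = 1.20e-07), so the block changed no call. The stricter filter was not run, as Nr5a2 is well above background on both arrays of 2 tissues and not of 5. With slide or scan day as a fixed block liver could not be compared with the mean of the other 14, because its slide holds only heart besides and its scan day is linked through shared tissues to 7 other tissues only. Levels in 12 tissues are limited by signal over background, and the size of their ratios depends on the offset.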
